A study of Mus musculus with 28 samples.

Results

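The Leydig cell fraction of the knockout experiment consisted of 4 of the series' 28 expression arrays: 2 arrays titled as wild-type (WT) Leydig cells and 2 titled as GRTH knockout (KO) Leydig cells. They were chosen by their titles alone, and KO was set against WT over all genes on the array. The mice were adult C57BL/6 males, either WT or lacking Ddx25 (GRTH-/-), which encodes the gonadotropin-regulated testicular RNA helicase (GRTH), a DEAD-box enzyme of Leydig cells and germ cells. Leydig cells were obtained from both genotypes by centrifugal elutriation, which sorts cells by size and density, and no other treatment was labelled. Round spermatid arrays (3 WT, 3 KO) and spermatocyte arrays (4 WT, 4 KO) from the same series served for comparison. The labels do not say whether the replicate arrays came from separate mice or cell preparations. The p-values therefore measure only the spread between these arrays, which may be technical.

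Leydig cells lie in the interstitium between the seminiferous tubules and make testosterone. Luteinizing hormone (LH) acts through cyclic AMP to raise cholesterol delivery by the StAR protein into mitochondria, where the side-chain cleavage enzyme Cyp11a1 makes pregnenolone. Hsd3b1, Cyp17a1 and Hsd17b3 then carry the steroid on to testosterone. GRTH is known as a hormone-induced helicase, and male mice without it are sterile because round spermatids stop developing.

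Across the 9097 genes tested of 18193 measured, the KO fraction showed higher signals of steroidogenic, macrophage, matrix and antioxidant genes and lower signals of spermatid genes. With a Benjamini-Hochberg adjusted p under 0.05 in limma's linear model, 7087 genes (77.9%) were called, 3510 higher (38.6%) and 3577 lower (39.3%). At least 2-fold changes were called for 606 higher and 179 lower genes, an order that turned to 261 higher and 392 lower on arrays centred on their medians; 13 and 10 genes passed 4-fold. Of the 606 rises, 183 (30.2%) passed the filter on low signal, which kept the brighter genes by their mean over the 4 arrays, only through their KO arrays and so had to be higher, and 20 of the 179 falls only through their WT arrays. The median log2 change was 0.39 over the genes called higher, -0.27 over those called lower and -0.01 over all genes tested. The groups did not overlap for 8230 genes (90.5%), with 44.4% of genes higher and 46.1% lower in KO, so a lack of overlap singles out no gene here.

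These counts rest on replicate arrays that were very close. The SD of the log2 difference between replicates over the tested genes was 0.0845 for the WT pair and 0.0707 for the KO pair, tighter than every other replicate pair of the series, while pairs of opposite genotype differed with an SD of 0.525 to 0.529. When the spread was instead estimated from all 18 cell fraction arrays, 4340 genes were called (2287 higher, 2053 lower), and from the 24 arrays without immunoprecipitation 2115 (1290 higher, 825 lower). Fold sizes are therefore given first below, and calls second. Arrays had been scaled to a common mean, so each level is relative to the rest of its array. Fewer cells of a type and less RNA per cell cannot be told apart in such bulk RNA. Centring each array on its median in place of the mean lowered every change by 0.29, and the split became 1738 higher and 6299 lower (21.6% of calls higher, against 49.5%).

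The labelled cell type was checked against marker lists. Of 13 Leydig cell markers 9 had a probe set of their own; Insl3, Hsd3b6, Lhcgr and Prlr were not analysed here. Their summed signal was 33828 and 34024 in the 2 WT Leydig arrays and 63446 and 64384 in the 2 KO arrays, against a mean of 1167 in WT round spermatids and 7158 in WT spermatocytes. The fraction was thus rich in Leydig cell RNA in both genotypes. It also carried much germ cell RNA: the 19 elongating spermatid markers summed to 249537 and 252988 in the WT Leydig arrays, between the means of 540856 in WT round spermatids and 170870 in WT spermatocytes. None of the 11 measured endothelial markers and none of the 3 measured red blood cell markers passed the signal filter, and the endothelial sums were 605 to 680 on the 4 arrays. The ratio of 3' to 5' actin probe sets was 1.46 to 1.51 on the 4 arrays, whereas the Gapdh ratio was 0.888 and 0.893 in WT and 0.681 and 0.680 in KO; its part in the results was not tested.

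Promoter sequences are shown for 3 of 4 steroid genes looked up, as context for how steroidogenic genes are laid out. Nr5a1 (steroidogenic factor 1) and related nuclear receptors recognise elements built around the core AGGTCA, which was searched on both strands and is in capitals where found. Windows of 300 bases, 250 before to 50 after the start, came from RefSeq on GRCm38.p6. Cyp11a1 (chr9:58014702-58015001, plus strand) held 1 match; a second window listed for this gene held none. Sult1e1 (chr5:87591562-87591861, minus strand) held 1 match on the reverse strand, and Hsd3b1 (chr3:98859745-98860044, minus strand) held none, as did Hsd17b3 (chr13:64089152-64089451, minus strand, not shown), which says only that these letters are not in those windows.
Cyp11a1: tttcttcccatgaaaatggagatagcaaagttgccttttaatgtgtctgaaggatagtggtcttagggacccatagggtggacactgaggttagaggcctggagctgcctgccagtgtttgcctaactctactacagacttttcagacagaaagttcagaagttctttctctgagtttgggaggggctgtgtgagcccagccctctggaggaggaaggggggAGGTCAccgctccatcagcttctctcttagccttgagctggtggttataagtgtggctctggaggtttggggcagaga
Sult1e1: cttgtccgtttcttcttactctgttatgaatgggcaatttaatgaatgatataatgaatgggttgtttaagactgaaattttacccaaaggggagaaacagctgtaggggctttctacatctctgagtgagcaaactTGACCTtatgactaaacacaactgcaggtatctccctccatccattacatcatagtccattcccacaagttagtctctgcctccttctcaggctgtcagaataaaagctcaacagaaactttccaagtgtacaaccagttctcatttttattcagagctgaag
Hsd3b1: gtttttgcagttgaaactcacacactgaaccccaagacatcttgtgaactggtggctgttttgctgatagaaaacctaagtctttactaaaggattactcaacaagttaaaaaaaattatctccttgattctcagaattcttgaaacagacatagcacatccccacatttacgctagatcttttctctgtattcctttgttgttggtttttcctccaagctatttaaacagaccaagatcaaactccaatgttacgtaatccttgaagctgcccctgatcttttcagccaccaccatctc
The core was found in 16.3% of all 32851 promoter windows. Counted by gene, 17.6% of the 678 genes with a window among the 833 Leydig-enriched genes that rose held it, as did 16.1% of the 7488 tested genes with a window. A match is a description of the sequence and not evidence of binding.

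Ddx25, the targeted gene, had signals of 13913 and 14196 in WT and 3524 in both KO arrays, a log2 change of -1.99 ± 0.02 (SE, n = 2 per group; limma adjusted p = 2.38e-05), so 25.1% of the WT signal remained. Whether its probe set lies inside the deleted part was not given in the sources used here. The KO arrays matched their label in direction. Its groups did not overlap, as was so for 90.5% of all genes tested.

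The genes of testosterone synthesis were all higher in the KO fraction. Star, the cholesterol importer, measured 1287 and 1353 in WT and 3152 and 3195 in KO, a log2 change of 1.26 ± 0.03 (adjusted p = 3.7e-05). Cyp11a1 went from 3953 and 3827 to 9518 and 9557, a change of 1.29 ± 0.03 (adjusted p = 2.6e-05). Hsd3b1 went from 2928 and 2980 to 9161 and 9292, or 1.64 ± 0.02 (adjusted p = 2.38e-05), the largest rise of the Leydig markers. For all 3 genes the KO arrays lay far above the WT arrays. Hsd17b3, which makes testosterone from androstenedione, measured 1306 and 1322 in WT and 3410 and 3517 in KO (1.39 ± 0.03, adjusted p = 2.56e-05). Cyp17a1, the 17-hydroxylase and lyase, moved least of the 5, from 12305 and 12332 to 16068 and 16445 (0.40 ± 0.02, adjusted p = 0.000243). Its groups too did not overlap, as for 90.5% of all genes.

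Over the whole marker list, 8 of the 9 measured genes were tested and all 8 were called higher, with a median log2 change of 1.19 (0.40 to 1.64), beside 38.6% of all genes. The remaining 3 were the adhesion molecule Vcam1 (1.13 ± 0.02), the transcription factor Nr5a1 (0.96 ± 0.09) and the fatty acid carrier Fabp3 (0.80 ± 0.02). Hsd11b1, which interconverts glucocorticoids, was too dim to test, at signals of 15.3 to 56.3. With the spread taken from 24 arrays Cyp11a1 (adjusted p = 0.0539), Nr5a1 (0.119) and Cyp17a1 (0.443) lost their calls, and the other 5 kept theirs. Beside these rises the summed signal of elongating spermatid markers in KO was 0.639 of WT; its part in them was not tested. In the germ cell fractions, described here without a test, the median change of the 8 markers was 0.61 in round spermatids and 0.43 in spermatocytes. Individual markers varied: in round spermatids 5 had a change above 0 and 3 below it, which were Star, Nr5a1 (-0.48) and Vcam1 (-0.07). These 3 were dim in round spermatids, at mean signals of 57.5 to 153. Of the 5 above 0, Hsd17b3 (49.7 in WT and 93.5 in KO), Cyp11a1 (51.0 and 142) and Hsd3b1 (117 and 177) were similarly dim. Fabp3 (219 and 409) and Cyp17a1 (330 and 523) were brighter.

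**Figure D1:**
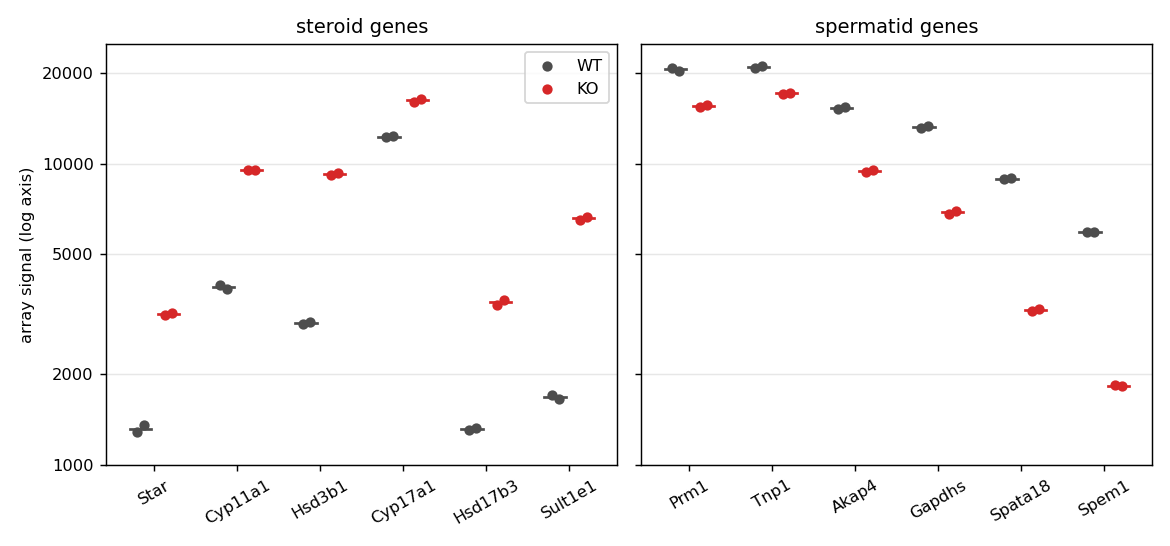
Array signals (log axis) of 6 steroid genes and 6 spermatid genes in the Leydig fraction; each point is 1 array, grey for WT and red for KO, and each bar is the mean of 2 arrays. Every steroid gene shown is higher in KO, from Cyp17a1 (log2 0.40) to Sult1e1 (1.96), and every spermatid gene is lower, from Tnp1 (-0.29) to Spem1 (-1.69).

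Steroid and cholesterol handling genes outside the core enzymes rose as well. Of 30 listed genes 23 were measured and 19 tested, a list that includes the 5 core genes above. Of the 19, 17 were higher and 1 lower, beside 38.6% and 39.3% of all genes, with a median of 0.85. Sult1e1, the estrogen sulfotransferase of Leydig cells, measured 1709 and 1656 in WT and 6525 and 6670 in KO, a log2 change of 1.96 ± 0.03 (adjusted p = 2.38e-05). Abca1, a cholesterol exporter, measured 2483 and 2489 against 6764 and 6887 (1.45 ± 0.02). Apoe, a lipid carrier that macrophages also make, measured 2237 in both WT arrays and 5432 and 5531 in KO (1.29 ± 0.02). These 3 genes had no overlap between genotypes, like 90.5% of all genes. Pank1, a coenzyme A synthesis enzyme, rose by 1.24 ± 0.02 and Tspo, the outer mitochondrial membrane protein, by 1.06 ± 0.06. The single gene called lower was Lipe, the hormone-sensitive lipase, at 2142 and 2092 in WT and 1054 and 962 in KO (-1.06 ± 0.05, adjusted p = 0.000166). Lipe was also lower in KO round spermatids (-1.48) and was not enriched in the Leydig fraction.

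Cholesterol synthesis genes were higher in 15 of 18 tested cases (19 measured of 22 listed), with 1 lower and a median of 0.72. The shares over all genes were 38.6% higher and 39.3% lower. The largest changes were in the steps after lanosterol: Msmo1 (1278 and 1248 in WT, 3410 and 3357 in KO; 1.41 ± 0.02), Nsdhl (795 and 825 against 2047 and 2013; 1.31 ± 0.03) and Ebp (664 and 648 against 1588 in both KO arrays; 1.26 ± 0.02). All 3 were more than 2-fold apart. The cytosolic HMG-CoA synthase Hmgcs1 rose by 1.02 ± 0.02 and the sterol sensor partner Insig1 by 1.11 ± 0.03. The squalene branch did not follow: Sqle, squalene epoxidase, measured 3677 and 3639 against 3694 and 3750 (0.02 ± 0.02, adjusted p = 0.329), and Fdft1, squalene synthase, was slightly lower (-0.15 ± 0.02, adjusted p = 0.00337). Both had similar levels in the Leydig and germ cell fractions, and on arrays centred on their medians Sqle would lie below WT.

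Members of the hormone response and Leydig transcription list went both ways. Of 14 tested 8 were higher and 4 lower, beside 38.6% and 39.3% of all genes. Their median was 0.19, which became -0.10 on median-centred arrays (5 higher, 7 lower). Esr1, the estrogen receptor, measured 326 and 331 in WT and 994 and 979 in KO (1.54 ± 0.02). Cebpb, a cAMP-responsive transcription factor, measured 233 and 221 against 745 and 764 (1.66 ± 0.03). Gnas, the stimulatory G protein subunit, rose by 0.88 ± 0.02. Pdgfra, a growth factor receptor of interstitial cells, had WT arrays that differed from each other, at 92.6 and 179, and KO arrays at 418 and 448 (1.63 ± 0.30, adjusted p = 0.00874); it passed the filter only through the latter. Among the genes lower in KO were Nr4a1, an orphan receptor induced by LH, and Crem (-0.37 ± 0.03), a factor that spermatids use heavily. Nr4a1 measured 1220 and 1227 against 817 and 819.5 (-0.57 ± 0.02). In WT it was brighter in round spermatids (2900) than in the Leydig fraction (1224), and it changed by -0.35 in round spermatids.

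Antioxidant and detoxifying genes, which are abundant in steroid-producing cells, were called higher in 20 of 25 tested cases and lower in 4. Their median was 0.75, and among all genes 38.6% were higher and 39.3% lower. Gsto1 and Nqo1 passed the filter only through their KO arrays, and median-centred arrays gave 8 lower. Prdx3, the mitochondrial peroxiredoxin, measured 894 and 877 in WT and 2601 and 2548 in KO, a log2 change of 1.52 ± 0.02 (adjusted p = 2.38e-05). Txn1, thioredoxin, went from 1848 and 1864 to 5003 and 5053 (1.43 ± 0.02), and Cat, catalase, from 733 and 740 to 1732 and 1740 (1.22 ± 0.02). Genotypes were widely apart for each of them. Gpx4 and Gstm5, which germ cells also express strongly, changed by only -0.10 ± 0.02 and -0.07 ± 0.02, and Sod2 by -0.01 ± 0.02 (adjusted p = 0.798).

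Most tested macrophage markers were higher in KO. Testicular macrophages sit beside Leydig cells in the interstitium. Of 22 measured markers 19 were tested, of which 16 were higher and 1 lower, beside 38.6% and 39.3% of all genes. The median was 1.25 and the summed signal 1.43 times that in WT. Aif1 alone held 7808 and 7832 of the WT sums of 14863 and 14658. The mean sum in WT round spermatids was 22933. Of the 19, 6 passed the signal filter only through their KO arrays and so had to be higher. Csf1r, the receptor for macrophage colony-stimulating factor, measured 975 and 980 in WT and 2632 and 2702 in KO (1.43 ± 0.02, adjusted p = 2.38e-05). Lyz2, lysozyme, measured 831 and 833 against 2010 and 1985 (1.25 ± 0.02), and C1qa, a complement component, 383 and 392 against 1083 and 1039 (1.42 ± 0.03). None of these overlapped, which held for 90.5% of all genes. The antigen-presenting class II gene H2-Aa and Cd74, the invariant chain, were among the 6 that passed only through their KO arrays. Their sizes are therefore not set against those of the genes above. H2-Aa measured 185 and 189 against 963 and 999.8, a change of 2.30 ± 0.03 (1.46 and 1.69 with other probe sets). Cd74 changed by 1.80 ± 0.04. Aif1 was the marker called lower (-0.81 ± 0.02), at 7808 and 7832 in WT and 4430 and 4466 in KO; it also fell in KO round spermatids (-1.09), and it was not enriched in the Leydig fraction (a level difference of 0.12 log2).

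Class I and chemokine genes were higher in 7 of 7 tested cases (median 1.14), beside 38.6% of all genes. Of the 23 measured 16 were too dim, and Bst2 passed the filter only through its KO arrays. H2-D1, a class I heavy chain, measured 902 and 884 in WT and 3062 and 2852 in KO (1.71 ± 0.04), and B2m, its light chain, 3343 and 3260 against 7268 and 7279 (1.14 ± 0.02). The interferon genes Ifit1, Ifit2, Oas2, Rsad2 and Usp18 stayed at or below 92.8 on all 4 arrays and were not tested.

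Matrix and fibroblast markers were higher in 10 of 11 tested cases, beside 38.6% of all genes, with a median of 1.21. The other, Fn1, had a change of 0.14 ± 0.06 (adjusted p = 0.0983). Of the 11, 5 passed the filter only through their KO arrays and so had to be higher. Sparc, a matrix-binding glycoprotein, measured 1842 and 1818 in WT and 4230 and 4351 in KO (1.22 ± 0.02). Igfbp7 measured 1277 and 1264 against 2987 and 2920 (1.21 ± 0.02), and Dcn, decorin, 663 and 634 against 1395 and 1336 (1.06 ± 0.04). Sparc, Igfbp7 and Dcn, which were not among those 5, were thus about 2-fold higher. Their groups did not overlap, as for 90.5% of all genes. Of 7 tested hedgehog and growth factor genes 6 were higher and 1 lower, but 4 of them (Igf1, Igf1r, Pdgfra and Ptch1) passed the filter only through their KO arrays. They included Ptch1, the hedgehog receptor through which Sertoli cells act on Leydig cells (196 and 197 against 635 and 632; 1.61 ± 0.02), and the chemokine Cxcl12 (774 and 749 against 1818 and 1806; 1.23 ± 0.03). Pdgfa, the ligand made within the tubules, was lower (306 and 313 against 219 and 207; -0.51 ± 0.03).

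Immediate early genes, which respond within minutes to hormones and to cell handling, were higher in 11 of 18 tested cases and lower in 6. Over all genes 38.6% were higher and 39.3% lower, and the list median was 0.82. Hspa1a, Ier3 and Junb passed the filter only through their KO arrays. With the spread of 24 arrays 2 genes of the list stayed lower. Fos measured 1571 and 1557 in WT and 4187 and 4118 in KO (1.40 ± 0.02), Ier2 241 and 238 against 695 and 746 (1.53 ± 0.04), and Ier3 111 and 122 against 484 and 497 (1.94 ± 0.05). Each was clearly apart between genotypes. Jun rose by 1.06 ± 0.03, whereas the stress factor Ddit3 fell by 0.61 on the log2 scale, from 2772 and 2761 to 1813 and 1800. The part of cell handling in these values was not tested.

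Of 10 Sertoli cell markers tested, 7 were higher and 3 lower (median 0.64), beside 38.6% and 39.3% of all genes. With the spread of 24 arrays 5 were higher and 0 lower. Among the 3 lower, Rhox5 passed the filter only through its WT arrays and so had to be lower. Sox9, Wt1 and Fshr stayed at or below 83.2. Clu, clusterin, measured 5685 and 5913 in WT and 10450.3 and 10026 in KO (0.82 ± 0.03), and Kitl, the ligand of Kit, 432 and 431 against 1096 and 1098 (1.31 ± 0.02). Kit itself, carried by Leydig cells and spermatogonia, measured 469 in both WT arrays and 1514 and 1488 in KO (1.64 ± 0.02). Of 4 spermatogonia markers tested 1, Kit, was higher and 2, Uchl1 (-0.37) and Id4 (-0.14), were lower, with a median of -0.04. The Sertoli genes Cst12 (1218 and 1199 against 848 and 837; -0.51 ± 0.02), Rhox5 (-0.23 ± 0.02) and Cst9 (-0.16 ± 0.02) were lower. Of the peritubular markers 3 were tested: Acta2 (0.37 ± 0.09) and Myl9 (0.29 ± 0.03) were higher and Actg2 lower (-1.01 ± 0.02). However, Myl9 turned to -0.0069 on median-centred arrays, and the call of Acta2 was lost with quantile normalization (0.11). In WT, Actg2 was brighter in round spermatids (11813) than in the Leydig fraction (5631), as was Acta2 (426 against 281). Actg2 also fell in KO round spermatids (-1.15).

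**Figure D2:**
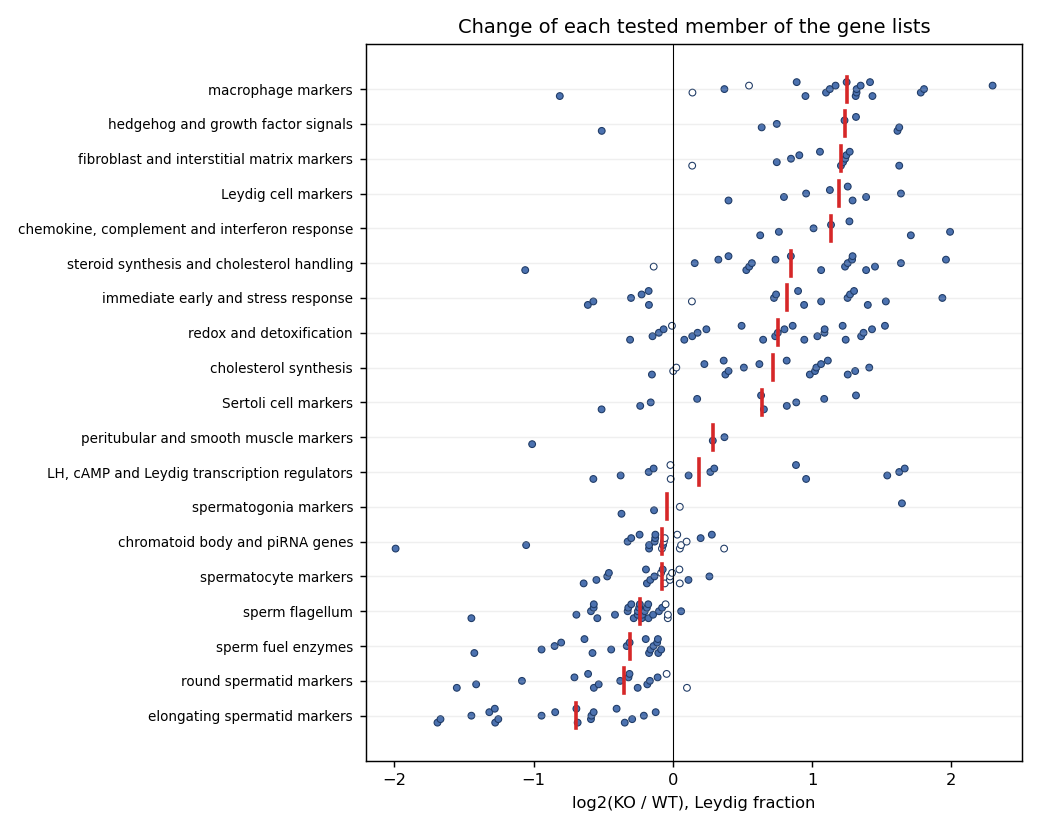
Log2 change between KO and WT of each tested member of the gene lists in the Leydig fraction; filled points passed limma's adjusted p of 0.05, open points did not, and red bars are list medians. Interstitial and steroid lists lie to the right, with medians up to 1.25, and spermatid lists to the left, down to -0.69.

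The direction of change followed where a gene was found. A gene was counted as enriched in the Leydig fraction when its mean log2 level over the 4 Leydig arrays, both genotypes equally, exceeded the mean of the 4 germ cell group means by 1 or more. Of the 864 such genes 833 were called higher (96.4%) and 10 lower (1.16%), against 2677 higher (32.5%) and 3565 lower (43.3%) of the 8227 genes at similar levels; the other 6 tested genes were lower in the Leydig fraction by 1 or more. The enriched genes moved by a narrow range of sizes, with a median log2 change of 1.09 and quartiles of 0.85 and 1.32. Because KO arrays enter that level, enrichment was also taken from WT arrays alone, a choice made after the data were seen: 641 of 689 enriched genes were then higher (93.0%), with a median of 1.13. KO arrays still entered that count, because the filter on low signal used all 4 Leydig arrays. In both counts, genes dim in WT could be tested only through their KO arrays and so had to be higher. The enriched genes of both genotypes supplied 531 of the 606 rises of 2-fold or more (87.6%). In the germ cell fractions the median change of these same genes was 0.11 in round spermatids and 0.19 in spermatocytes. The 10 enriched genes called lower were picked out after their values were seen. They included the Sertoli genes Cst9, Cst12, Tsx and Rhox5, the last passing the filter only through its WT arrays. Also among them were the pantetheinase Vnn1, at 434 and 406 against 332 and 306 (-0.38 ± 0.05), and Id4, a spermatogonial factor (-0.14 ± 0.02). Not all were brighter than both germ cell fractions. In WT, Id4 averaged 4287 in the Leydig fraction, 340 in round spermatids and 5815.5 in spermatocytes. Vnn1 averaged 420, 286 and 398 in these WT groups. It changed by -2.30 in round spermatids and -2.56 in spermatocytes.

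**Figure D3:**
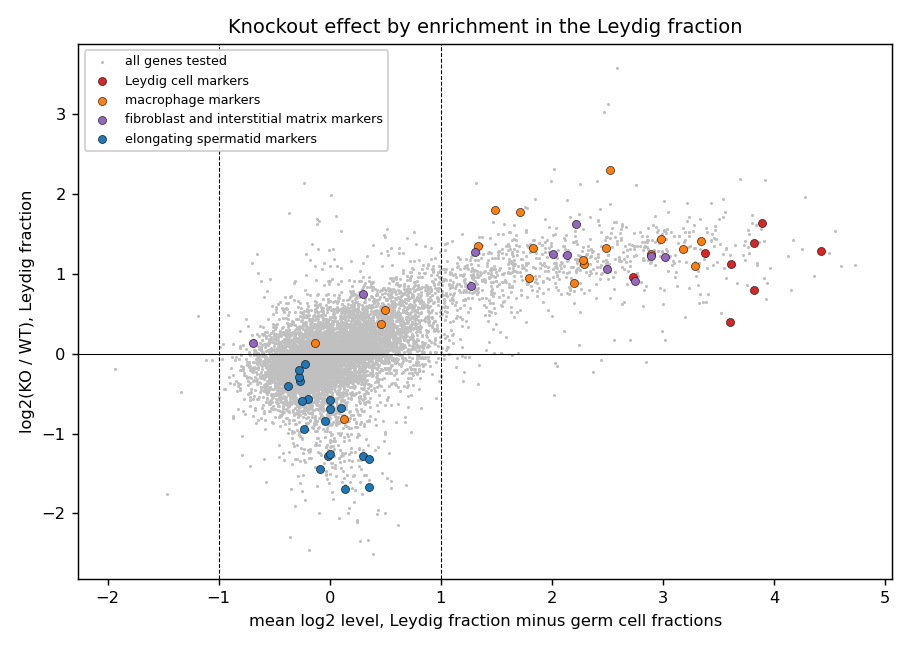
Each point is 1 of 9097 tested genes; the horizontal axis is its mean log2 level in the Leydig fraction minus that in the germ cell fractions, the vertical axis the log2 change between KO and WT in the Leydig fraction, and dashed lines mark differences of 1. Right of the line at 1 nearly all genes lie above 0, around the median of 1.09, and elongating spermatid markers lie below 0 near the centre.

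Of the 15 largest rises 8 passed the filter only through their KO arrays: Serpina3n, Ccdc80, 2900052N01Rik, Cd52, H2-Aa, Tspan4, Ly6d and Fetub. Serpina3n, a protease inhibitor of the acute phase response, measured 81.8 and 89.8 in WT and 1197 and 1194 in KO, a log2 change of 3.57 ± 0.04 (adjusted p = 2.38e-05), about 13.9 times the WT mean. Ccdc80, a matrix protein, went from 120 and 124 to 1178 and 1197 (3.12 ± 0.03), and the uncharacterised 2900052N01Rik from 82.2 and 84.9 to 803 and 786 (3.03 ± 0.03). These 3 stood well beyond the other 12 of the 15 largest rises, which lay between 1.96 and 2.31. Those were the leukocyte antigen Cd52, H2-Aa, Lrg1, the serpin Serpinb1a, the chemokine Ccl8, Tspan4, the prostacyclin synthase Ptgis, Ptchd3, Ly6d, Fetub, the Fc receptor Fcgr3 and Sult1e1. Another probe set of Serpinb1a gave 1.27.

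Some of these rises were shared with germ cells. Of the 606 genes called at least 2-fold higher in the Leydig fraction, 15 (2.48%) were at least 2-fold higher in both germ cell fractions too; they made up 5.43% of the 276 such rises in round spermatids and were 15 of the 30 in spermatocytes. Ptchd3, a patched-domain protein of the testis, measured 2020 and 1910 in WT Leydig arrays and 8711 and 8709 in KO (2.14 ± 0.03), with changes of 2.69 in round spermatids and 2.20 in spermatocytes. Fcgr3 measured 1118 and 1104 against 4439 and 4484 (1.99 ± 0.02), with 2.74 and 2.25 in the germ fractions, and was at equal levels in the Leydig and germ fractions. So its rise was not limited to the interstitial fraction. Vav2, a guanine nucleotide exchange factor (1.76 ± 0.03), Meox1 (1.62 ± 0.02) and Bdh1, a ketone body enzyme (1.56 ± 0.03), behaved alike, with changes of 1.16 to 1.92 in the germ fractions. Among the 15, Meox1, Neo1, Pdlim4, Rab4a and Serpina3n had WT Leydig signals below the filter's level of 207. They passed it only through their KO arrays and so had to be higher in the Leydig fraction.

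Spermatid genes fell. All 19 elongating spermatid markers were tested and called lower, 7 of them at least 2-fold, with a median of -0.69, beside 39.3% lower among all genes, and 12 of them were called with the spread of 24 arrays; their summed signal in KO, 159244 and 162018, was 0.639 of that in WT. Over the same arrays the Leydig marker sum was 1.88 times that in WT, and its part in these falls was not tested. Of the 16 round spermatid markers 14 were lower and 0 higher (median -0.35; 6 lower with the spread of 24 arrays, and 11 lower and 2 higher with quantile normalization; the sums fell to 0.708 of WT). Spem1, needed to shed cytoplasm from elongating spermatids, measured 5948 and 5954 in WT and 1844 and 1823 in KO (-1.69 ± 0.02, adjusted p = 2.38e-05). Fscn3, a testis fascin, measured 5518 and 5557 against 1749 and 1713 (-1.67 ± 0.02), and the kinase gene Tssk6 11474 and 11547 against 3886 and 3948 (-1.55 ± 0.02). The KO arrays of Spem1 and Fscn3 thus held 30.8% and 31.3% of the WT signal. The protamine and transition protein genes fell less, Prm1 by 0.40 on the log2 scale (20850 and 20354 against 15442 and 15692), Prm2 by 0.35, Tnp1 by 0.29 and Tnp2 by 0.21. Acr, the proacrosin gene, changed by -0.04 ± 0.02 (adjusted p = 0.0953), so the spermatid genes did not fall evenly.

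Flagellar and sperm energy genes followed, beside 39.3% lower among all genes. Of 28 flagellum genes 24 were lower and 1, Dnaic1, higher (0.06 ± 0.02), with a median of -0.24; with the spread of 24 arrays 5 stayed lower. Spata18 fell most (8882 and 8960 against 3243 and 3283; -1.45 ± 0.02), and Akap4, the main fibrous sheath protein, by 0.69 on the log2 scale. All 17 fuel enzyme genes were lower, with a median of -0.31, although quantile normalization left 9 lower and 2 higher and the spread of 24 arrays left 6 lower: Acsbg2, an acyl-CoA synthetase, fell most (3773 and 3737 against 1392 and 1385; -1.43 ± 0.02), followed by the sperm glycolytic enzyme Gapdhs (13178 and 13400.1 against 6828 and 6984; -0.94 ± 0.02), while Ldhc changed by -0.10 ± 0.03. Genes of earlier stages are set beside 39.3% lower among all genes. Of 18 spermatocyte markers 9 were lower and 2 higher (median -0.08), led by Syce2 of the synaptonemal complex (-0.64 ± 0.02) and Mybl1, a meiotic transcription factor (924 and 935 against 623 and 637; -0.55 ± 0.02). Syce2 was brighter in WT round spermatids (17609) than in WT spermatocytes (4379), and it changed by -1.04 in round spermatids. Of 21 tested genes of the chromatoid body and the piRNA pathway, where GRTH is known to reside, 11 were lower and 2 higher (median -0.08). Changes this small turned on the scaling: median-centred arrays gave 17 of the 18 spermatocyte markers and 19 of the 21 chromatoid body genes lower, whereas quantile normalization gave 7 spermatocyte markers higher and 5 lower, and 4 chromatoid body genes higher and 6 lower. Beyond Ddx25 the change reached 2-fold only for Kif17, a motor protein (4283 and 4280 against 2052 and 2057; -1.05 ± 0.02); Ddx4, the vasa helicase, changed by -0.13 ± 0.03.

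The largest falls included several uncharacterised genes. Of the 15 largest falls 5 passed the filter only through their WT arrays and so had to be lower. They were Efcab1, Vmn1r44, 5031439G07Rik, 4930412O13Rik and Slc5a9. 1700008P02Rik went from 1893 and 1924 to 331 and 312 (-2.51 ± 0.04), Efcab1, an axonemal calcium-binding protein, from 642 and 614 to 109 and 94.2 (-2.46 ± 0.07; -1.29 with another probe set), and Ubqlnl, a ubiquilin-like gene, from 3977 and 4052 to 958 and 915 (-2.08 ± 0.03). The groups were far apart in each. Lrrc57 changed by -2.33 ± 0.02, but its other probe set gave 0.59, so its direction is not settled. Klk1b8 (-2.34 ± 0.05) and Vmn1r44 (-2.29 ± 0.08) belong to gene families of similar sequence, and Rps25 (1463 and 1452 against 372 and 369; -1.93 ± 0.02) is a ribosomal protein gene with related copies. The rest of the 15 were Cby3 (-2.15), 1700020A23Rik (-2.11), 5031439G07Rik (-2.06), 1700009J07Rik, 4930412O13Rik, 1700012A03Rik, Slc5a9 (-1.96) and Ddx25. Of the 179 genes called at least 2-fold lower, 160 (89.4%) were also at least 2-fold lower in round spermatids, or 49.2% of the falls there, against 43 of the 606 rises (7.1%, or 15.6% of the rises there). In both germ cell fractions 63 (35.2%) were at least 2-fold lower, which is 19.4% of the 325 such falls in round spermatids and 73.3% of the 86 in spermatocytes.

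The filter on low signal also left out genes with large changes, named here after their values were seen. Of the 9096 genes not tested, 55 had a group mean of 300 or more, 47 of them higher and 8 lower in KO. Dscaml1, a cell adhesion gene, measured 834 and 853 in WT and 3.71 and 2.77 in KO, and 1700063D05Rik 1065 and 1022 against 16.8 and 13.4. Both were near background in all 3 KO fractions: mean KO signals were 5.11 and 28.3 in round spermatids and 3.85 and 6.79 in spermatocytes. In the opposite direction, Cyp2c55, a cytochrome P450, measured 46.7 and 41.1 in WT and 488 and 494 in KO, and the growth arrest gene Gadd45b 74.8 and 77.4 against 448 and 508. Gadd45b was also higher in KO round spermatids (2.92), and Cyp2c55 in both germ fractions (1.84 and 3.19).

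The knockout effect was then compared between fractions by testing the difference itself. It differed between the Leydig fraction and round spermatids for 4321 genes (47.5%), 1657 with a more positive change in Leydig cells (18.2%) and 2664 with a more negative one (29.3%), and between the Leydig fraction and spermatocytes for 2835 (31.2%; 17.5% more positive, 13.7% more negative). Without any 1 of the 4 Leydig arrays the more negative ones against spermatocytes numbered 647 to 679 in place of 1246. Star rose in the Leydig fraction while its change in round spermatids had the opposite sign, a difference of 2.25 ± 0.55 (adjusted p = 0.00961), and Hsd3b1 rose more by 1.06 ± 0.27 (adjusted p = 0.0115). For Cyp11a1, in contrast, the changes were 1.29 and 1.23, and their difference, 0.06 ± 0.28 (adjusted p = 0.871), did not pass. These steroid genes were dim in round spermatids, below the signal of 207 that the filter kept in the Leydig fraction. Round spermatid means were 125 in WT and 61.6 in KO for Star, 117 and 177 for Hsd3b1, and 51.0 and 142 for Cyp11a1. Pcolce, an enhancer of procollagen processing, measured 3658 and 3742 in WT and 8041 and 8186 in KO Leydig arrays (1.13 ± 0.02) and changed by -0.65 in round spermatids, a difference of 1.78 ± 0.07 (adjusted p = 6.97e-06). The folate enzyme Aldh1l1 differed by 2.01 ± 0.08, from 1086 and 1077 to 3233 and 3376 in the Leydig fraction. The opposite pattern was found for Lef1, a Wnt transcription factor that measured 1612 and 1559 against 1711 and 1604 in the Leydig fraction (0.06 ± 0.04) and changed by 2.16 in round spermatids, a difference of -2.10 ± 0.09 (adjusted p = 1.09e-05). Dnah2, an axonemal dynein, and Ift46, of intraflagellar transport, differed by -1.36 ± 0.07 and -1.40 ± 0.08 in the same way. Elongating spermatid markers gave 2 differences of 19, both positive, and the other 17 did not pass; their median change was -0.69 in the Leydig fraction and -0.95 in round spermatids.

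**Figure D4:**
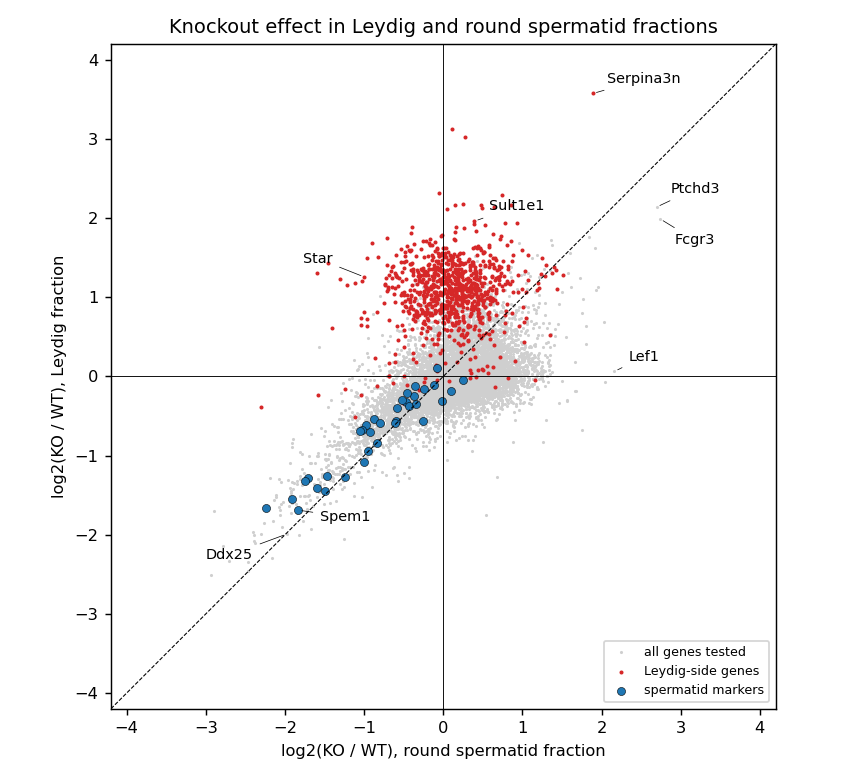
Log2 change between KO and WT in round spermatids (horizontal) and in the Leydig fraction (vertical) of the 9097 tested genes; red points are the 864 genes enriched in the Leydig fraction, blue points spermatid markers, and the dashed line marks equal changes. Enriched genes form a cloud about 1.09 up and near 0.11 across, spermatid markers lie mostly below 0 on both axes, and Ptchd3 and Fcgr3 lie high in both. Changes of genes dim in round spermatids are understated by the offset.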

How the data were processed

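Total RNA (Trizol) from elutriated cells was labelled with biotin and hybridised to one-colour arrays, per the labels' protocols. The authors' deposited values are linear signal intensities of 45101 probe sets, made with GCOS per the submitters' processing notes; their version and settings were not given in these sources. The Leydig arrays were deposited at a trimmed mean of 500, and 4 polysome arrays were rescaled to it. After log2(signal + 16), 1 probe set stood for each of 18193 genes (the brightest over the 28 arrays), and the brighter 9097 of these genes over the 4 Leydig arrays were tested, down to a signal of 207. The offset understates changes of dim genes. KO was compared with WT by limma 3.58.1 (R 4.3.3; data.table version 1.17.8) with Benjamini-Hochberg adjustment; ± is the SE. Differences between fractions were limma contrasts over both fractions' arrays. An exact permutation test of 2 against 2 arrays cannot go below p = 0.333. In simulated data of this design 88% of changes of 0.5 and 97% of 1 (log2) were recovered among 9097 genes. The members and gene lists were chosen with earlier results of these data known. Named genes are Ddx25, the 15 largest rises and falls, the Leydig markers, the 4 smallest adjusted p of each list and the 5 each way that differed most clearly from round spermatids; other list members were picked after their values were seen. Python 3.11.15 (numpy 2.4.6, pandas 2.3.3) and matplotlib 3.10.9 drew the figures.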

Additional observations from a re-analysis of the deposited data

Results flagged for a closer look

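The knockout effect in the Leydig fraction differed from that in round spermatids for 4321 genes and from that in spermatocytes for 2835, by limma's test of the difference. The change was more positive in the Leydig fraction than in round spermatids for C1qtnf3 (a difference of 2.22 on the log2 scale), Aldh1l1 (2.01), Cd302 (1.89), C1qb (1.83) and Pcolce (1.78). Among the Leydig markers this held for Star (2.25), Nr5a1 (1.43), Vcam1 (1.19), Hsd3b1 (1.06) and Hsd17b3 (0.65). These markers were dim in round spermatids, at mean signals from 49.7 (Hsd17b3, WT) to 177 (Hsd3b1, KO). The change was more negative in the Leydig fraction for Lef1 (-2.10), Ift46 (-1.40), Dnah2 (-1.36), Cep55 (-1.32) and D030056L22Rik (-1.31). Fcgr3 (-0.75) and Ptchd3 (-0.56) rose in both fractions, by less in the Leydig fraction. Another probe set of C1qb gave a Leydig change of 0.18 in place of 1.13.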

How the results depend on the processing

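The Leydig counts stayed within 1.5 times under other pseudocounts, array weights, quantile normalization and the other choice of probe set. With a filter at the upper quartile of signal, fewer genes were tested and 3859 changed (1311 higher). Centring arrays on their medians gave 1738 higher and 6299 lower. Estimating the spread from 18 arrays gave 4340 changed, 2287 higher and 2053 lower, and from 24 arrays 2115, 1290 and 825, with 15 of 113 named genes losing their call. Leaving out 1 Leydig array gave 6185 to 6635 changed genes. No filter gave 4969 higher and 3690 lower. The difference from round spermatids gave 2424 changed (750 higher, 1674 lower) with the stricter filter, 1060 higher on centred arrays, 6491 changed and 2666 higher with array weights, and 3052 to 5166 changed without 1 array. The difference from spermatocytes gave 1558 changed and 577 higher with the stricter filter, 2329 lower with quantile normalization, 5528 changed (866 higher, 4662 lower) on centred arrays, and 4377 changed and 2169 lower with array weights. Without 1 array it gave 1820 to 2828 changed and 647 to 1249 lower, the lowest values without any 1 of the 4 Leydig arrays. Same-numbered Leydig arrays did not deviate together (r = 0.0277 across genes, 2 pairs). With the replicate number as a block the Leydig counts were 3476 higher and 3490 lower, and 2128 genes had a lower effect than in spermatocytes. Small changes turned sign on centred arrays: Cep55 (-0.26), Dazl (-0.24), Lef1 (-0.23), Mlh3 (-0.031) and Myl9 (-0.0069). D030056L22Rik, near 0, became 0.17 with quantile normalization and ranged from -0.0267 to 0.0243 without 1 array. Other probe sets gave 0.035 for D030056L22Rik, -0.076 for Lef1, 0.59 for Lrrc57 and 0.33 for Rnf17. Array signal over background, not tested here by detection calls, limits the dim genes.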
